A study of Mus musculus with 9 samples.

Results

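The 38 genes described here encode chaperones, disulfide isomerases, degradation factors, translocation subunits and stress sensors of the endoplasmic reticulum (ER). They were taken by symbol from a fixed list and are 38 of the 48709 gene rows of the deposited table. All 38 were found, Selenos under its older symbol Vimp, and all 38 were among the 11971 genes tested, those whose mean reached 1 TPM in any of the groups. TPM counts a gene's transcripts as a share of all transcripts of its library and is corrected for gene length, so levels can also be set side by side between genes. The libraries hold RNA of mouse CD8+ T cells, the cytotoxic lymphocytes, in 3 groups of 3 libraries. The first group received OVA peptide, a fragment of chicken ovalbumin used as a model antigen, together with citraconate, a small unsaturated dicarboxylic acid. The next received OVA peptide alone, and the control group received no peptide. The sources used here do not give genotype, strain, age, doses or times, and no group received citraconate without peptide. The labels speak of PAS-T cells, a term they do not define, in 8 libraries, and of T cells stimulated with OVA in replicate 1 of OVA plus citraconate. They do not say whether replicates are separate animals or cultures, so the p-values rest on the spread between these libraries alone, and that spread may be technical.

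Proteins that are secreted, stored in granules or placed in the cell surface enter the ER through the SEC61 channel and are folded there by chaperones such as BiP and calreticulin and by disulfide isomerases. When unfolded proteins gather, the sensors IRE1, PERK and ATF6 start the unfolded protein response. IRE1 splices the messenger RNA of XBP1, PERK slows translation through eIF2 alpha, and ATF6 is cut to a transcription factor. In T cells the ER serves the making of receptors, cytokines and granule proteins. Levels per gene do not show the splicing of Xbp1, the cutting of ATF6 or the activity of IRE1 and PERK, none of which was measured.

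With OVA, 33 of the 38 genes rose, 1 (Atf6) fell and 4 (Dnajb9, Derl3, Ppib and Fkbp2) did not pass the test. The test was limma on log2(TPM + 1), called at a Benjamini-Hochberg adjusted p under 0.05. Over all genes tested, 32.1% were called higher and 39.8% lower in the same comparison. The median log2 change of the 38 genes was 0.90, against -0.08 over all genes tested. For 16 of the 38 the log2 change was 1 or more in size. In 33 of the 38 every OVA library lay above every control library, against 33.7% of all genes tested. Together the 38 genes took 0.739% of all transcripts with OVA plus citraconate (0.717 to 0.769% over the 3 libraries), 1.32% with OVA (1.24 to 1.46%) and 0.676% in control (0.667 to 0.686%).

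With citraconate added to OVA, 36 of the 38 genes fell relative to OVA alone, 0 rose, and Atf6 and Derl3 did not pass the test. Over all genes tested, 21.2% were called lower and 37.8% higher. The median log2 change of the 38 was -0.68, while the median over all genes tested was 0.12. Relative to that all-gene median the 38 genes stood at -0.80. All libraries scaled to a common median ratio gave a more even split over all genes, with 49.8% of calls higher, against 64.0% as deposited. Under that scaling 36 of the 38 genes were again called lower. In 36 of the 38 every OVA plus citraconate library lay below every OVA library, against 24.2% of all genes tested. The comparisons share libraries, the OVA libraries being the numerator of the first and the denominator of the other, so a gene high in OVA moves in both.

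**Figure D1:**
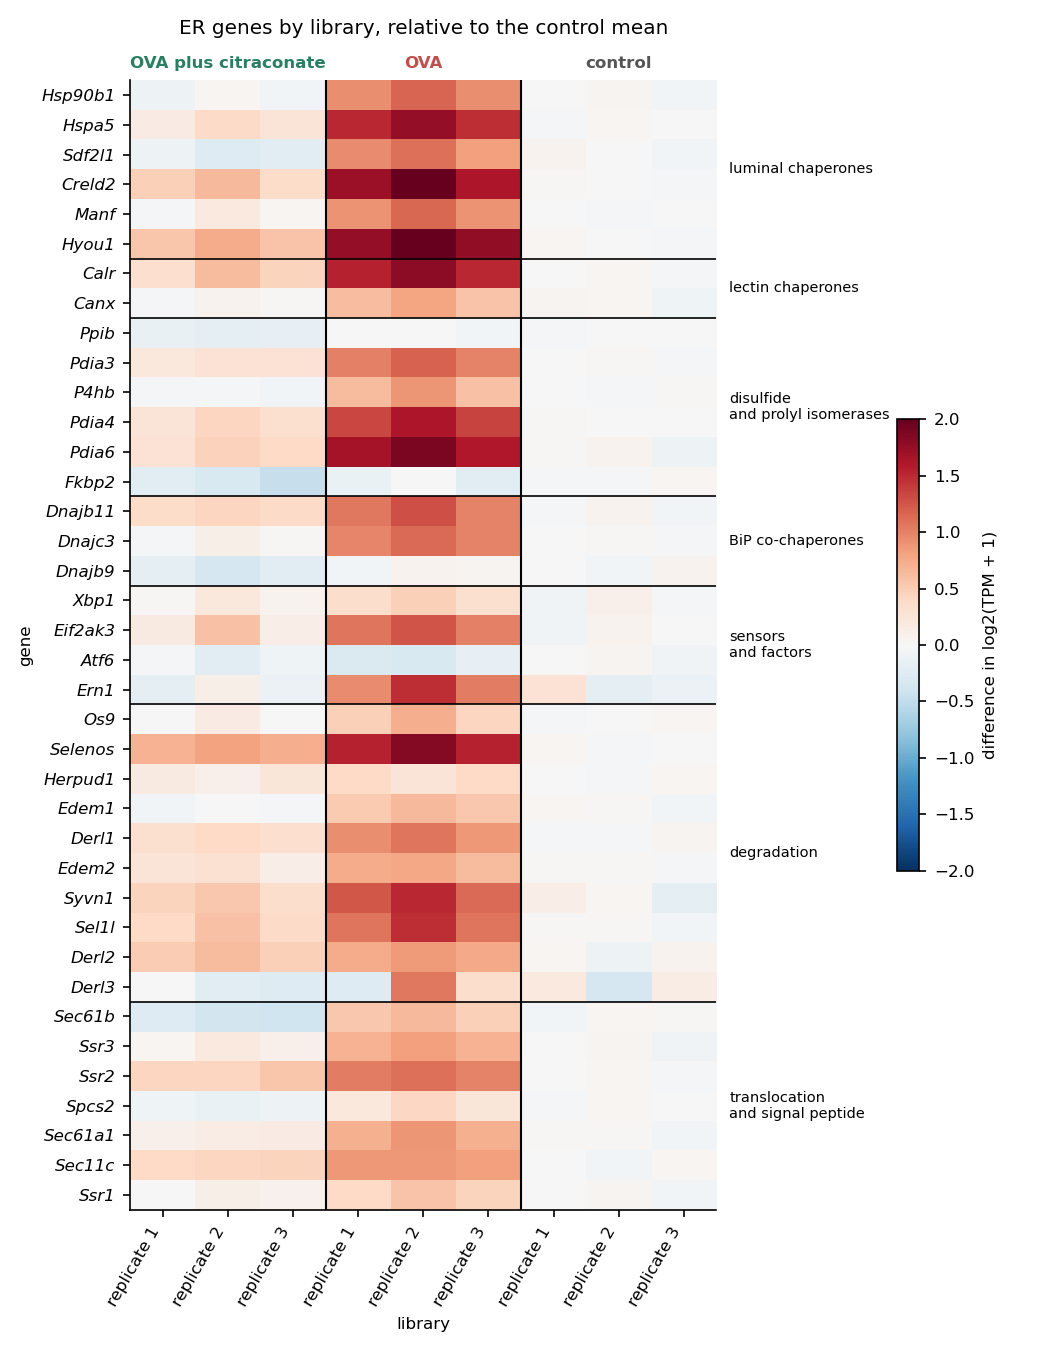
Level of the 38 ER genes in each of the 9 libraries (columns, by group) as the difference in log2(TPM + 1) from the mean of the 3 control libraries, with red above and blue below it and genes (rows) grouped by role. The 3 OVA columns are red for most rows, while the 3 OVA plus citraconate columns are paler, and Atf6, Ppib, Fkbp2 and Dnajb9 do not share the red of the OVA columns.

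**Figure D2:**
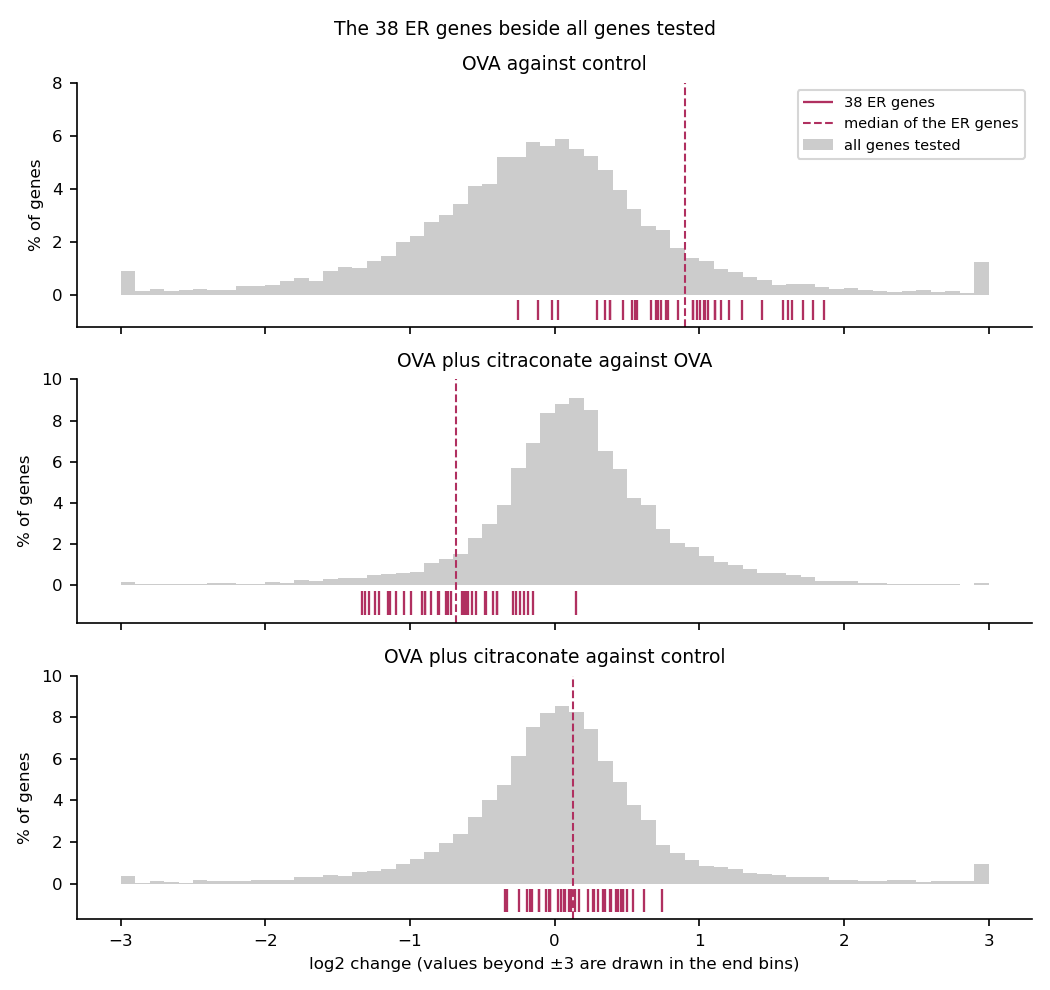
Log2 change (horizontal axis) of the 38 ER genes (ticks under each panel, dashed line at their median) beside the distribution of all 11971 genes tested (grey bars, percent of genes), in 3 comparisons. The median of the ER genes is 0.90 in OVA against control, -0.68 in OVA plus citraconate against OVA and 0.13 in OVA plus citraconate against control.

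Recovered from the table, between 14754470 and 17384330 reads were assigned to genes per library, so that the least abundant of the 38, Derl3, had 4 to 25 reads in a library and the others at least 123. All 10 CD8 T cell markers were present in every group, with a summed level of 7895 to 8349.6 TPM with OVA plus citraconate, 4363 to 5581 TPM with OVA and 8979.8 to 9441 TPM in control. Of these 10, 0 rose and 9 fell with OVA, and 9 rose and 0 fell with citraconate added. Over all genes tested, 32.1% were called higher and 39.8% lower with OVA, and 37.8% higher and 21.2% lower with citraconate added. The median log2 changes of the 10 CD8 T cell markers were -1.43 and 1.18, opposite in direction to those of the ER genes. Thy1, the most abundant of them, passed neither test (2640 ± 216, 2736 ± 34.9 and 2662 ± 57.4 TPM with OVA plus citraconate, with OVA and in control). Plasma cells are rich in the genes described here. Summed over 10 plasma cell markers, the level was 245 to 264 TPM with OVA plus citraconate, 144 to 170.2 TPM with OVA and 308 to 351 TPM in control. Tnfrsf17 was listed at 0 in every group. Ighm and Irf4 had the highest levels of these markers in control. Of the 8 plasma cell markers tested, 5 rose and 3 fell with OVA, and 3 rose and 4 fell with citraconate added. The light chain gene Igkc, Mzb1 and Ighg1 rose with OVA and fell with citraconate added. Ighm and Irf4 fell with OVA and rose with citraconate added, while Jchain fell and Sdc1 rose in both comparisons. Prdm1 rose with OVA and did not pass the test with citraconate added. Jchain averaged 0.0835, 2.03 and 6.25 TPM with OVA plus citraconate, with OVA and in control, and Sdc1 averaged 35.4, 10.5 and 0.198 TPM. Igkc averaged 0.727 ± 0.378 TPM with OVA plus citraconate, 42.1 ± 12.96 TPM with OVA and 16.9 ± 6.95 TPM in control. Mzb1, a chaperone partner of plasma and B cells, averaged 0.248 ± 0.43, 3.11 ± 1.40 and 0.859 ± 0.752 TPM in the same groups, and Ighg1 averaged 0.267 ± 0.185 TPM with OVA plus citraconate and 1.54 ± 0.724 TPM with OVA and was listed at 0 in control. B cell markers summed to at most 2.91 TPM with OVA and to at most 16.7 TPM in control. Myeloid and dendritic markers (11 in the table) summed to at most 25.1 TPM in any library, with Clec9a, Siglech and S100a8 at 0 in every group. CD4 T cell markers (6) summed to 285 to 309.7 TPM with OVA plus citraconate, 78.3 to 127 TPM with OVA and 302 to 321 TPM in control, and Ctla4 made up most of each sum (273 ± 12.3, 80.0 ± 24.3 and 248 ± 6.37 TPM). Cd4 itself averaged 1.02 ± 0.197, 1.27 ± 0.334 and 2.62 ± 0.428 TPM, and Foxp3 at most 0.114 TPM in any group.

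The summed levels of natural killer cell markers and of granzyme genes stood in the same order of groups as the summed level of the ER genes. The 10 natural killer markers summed to 474 to 681 TPM with OVA plus citraconate, 1743 to 2694 TPM with OVA and 56.9 to 59.8 TPM in control, where Ncr1 was at 0. Of these 10, 9 rose with OVA and 9 fell with citraconate added, Klrk1 being the exception in both comparisons. Over all genes tested, 32.1% were called higher with OVA and 21.2% lower with citraconate added. Granzyme genes took 3.80%, 8.53% and 0.995% of all transcripts with OVA plus citraconate, with OVA and in control. Of 10 granzyme genes, 9 rose with OVA (all but Gzmm) and 8 fell with citraconate added (all but Gzmb and Gzmm). Gzmb averaged 18525 ± 3242 TPM with OVA plus citraconate and 19445 ± 630 TPM with OVA (limma adjusted p = 0.538). Ctsw, which encodes cathepsin W, went the other way, with 249 ± 30.2, 131 ± 11.7 and 358 ± 12.3 TPM in the 3 groups. With the granzyme genes left out of the table, 33 of the 38 rose with OVA and 36 fell with citraconate added to it. Over all 12018 genes tested in that setting, 4539 rose with OVA and 3054 fell with citraconate added. Leaving these genes out rescales the other levels, so it cannot show which cells the RNA came from. The part of the other markers in these results was not tested. In bulk RNA, fewer cells of a type and less RNA per cell cannot be told apart.

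Among the OVA libraries, replicate 2 was the highest for 36 of the 38 genes (94.7%), against 34.3% of all genes tested. That library also had the highest granzyme share of the 3 (9.54%) and the lowest share of mitochondrially encoded transcripts (6.15%, the highest of the 3 being 8.35%). Without it, 33 of 37 genes rose with OVA, with a median log2 change of 0.89, and 34 of 37 fell with citraconate, with a median of -0.61. Derl3 no longer passed the filter on low values then. Fkbp2 was called lower with OVA without that library (log2 -0.17, adjusted p = 0.0468), which made 2 genes called lower in place of 1. In OVA plus citraconate and in control, replicate 2 also had the highest summed share of the 38 genes (0.769% and 0.686%). Its granzyme share was the highest of each group too (4.87% and 1.09%). There, unlike with OVA, it had the highest share of mitochondrially encoded transcripts (10.7% and 7.76%).

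The ER stress response element is the DNA sequence through which ATF6 and XBP1 act together with the factor NF-Y, and it was looked for in promoters because it links many of these genes. Promoter windows of 250 bases before to 50 after the start, from RefSeq (GRCm38.p6), were on hand for 31 of the 38 genes. The element was searched on both strands as CCAAT and CCACG separated by 9 bases of any kind. It stood in the windows of 9 of the 31 genes (29.0%), against 37 of 27025 symbols in all (0.137%), a count that includes these 9. The element and the list were both chosen for their known place in the response to ER stress. A higher share among the 31 genes was therefore set by that choice, for this form and the second form below, and tests nothing. The 9 were Hspa5, Hsp90b1, Calr, Canx, Pdia6, Creld2, Dnajc3, Syvn1 and Derl3. Their sites follow, each read on the strand that gives CCAAT first, with CCAAT and CCACG in capitals and the bases between them in lower case, to show how much the middle differs.
Hspa5, 65 bases before the start: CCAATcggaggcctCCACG
Hsp90b1, 212 bases before the start: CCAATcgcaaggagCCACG
Hsp90b1, 107 bases before the start, opposite strand: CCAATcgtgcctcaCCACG
Calr, 162 bases before the start, opposite strand: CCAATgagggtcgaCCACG
Canx, 145 bases before the start: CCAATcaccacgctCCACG
Pdia6, 98 bases before the start: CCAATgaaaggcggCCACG
Creld2, 126 bases before the start, opposite strand: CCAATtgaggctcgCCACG
Dnajc3, 105 bases before the start: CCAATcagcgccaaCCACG
Syvn1, 44 bases before the start: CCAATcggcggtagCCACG
Derl3, 156 bases before the start, opposite strand: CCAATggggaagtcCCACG
The distance is that of the base of the site farthest from the start. All 10 sites lay between 44 and 212 bases before the start.

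A second form of the element, ATTGG and CCACG separated by 1 base, stood in 2 of the 31 windows (6.45%), those of Herpud1 and Dnajb11, against 12 of 27025 symbols (0.0444%). These sites differ in the middle base alone, and the Dnajb11 site begins 7 bases after the start.
Herpud1, 52 bases before the start: ATTGGgCCACG
Dnajb11, 7 bases after the start: ATTGGcCCACG
The core TGACGTG was found for Hspa5 alone of the 31 genes, against 2.22% of all symbols. In Hspa5 it begins 157 bases before the start, apart from the element, which begins 65 bases before it. TGATGNAAT, the core of the amino acid response element bound by ATF4, was found for 0 of the 31, against 1.08% of all symbols. A match is a description of the letters and not a bound site.

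The 250 bases before the start are shown for the 3 abundant chaperones Hspa5, Hsp90b1 and Calr, as examples of 1 site on the gene's strand, 2 sites on opposite strands and 1 site on the opposite strand. They are read along the gene, with the element in capitals. On the opposite strand the element reads CGTGG first and ATTGG last. The windows are chr2:34771840-34772089, plus strand, for Hspa5, chr10:86705445-86705694, minus strand, for Hsp90b1, and chr8:84846932-84847181, minus strand, for Calr, all in GRCm38.p6.
Hspa5: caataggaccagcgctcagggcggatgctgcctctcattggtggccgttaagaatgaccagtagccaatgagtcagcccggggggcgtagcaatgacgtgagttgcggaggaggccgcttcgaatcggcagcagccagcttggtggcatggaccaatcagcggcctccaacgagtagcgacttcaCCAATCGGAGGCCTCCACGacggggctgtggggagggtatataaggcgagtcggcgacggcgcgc
Hsp90b1: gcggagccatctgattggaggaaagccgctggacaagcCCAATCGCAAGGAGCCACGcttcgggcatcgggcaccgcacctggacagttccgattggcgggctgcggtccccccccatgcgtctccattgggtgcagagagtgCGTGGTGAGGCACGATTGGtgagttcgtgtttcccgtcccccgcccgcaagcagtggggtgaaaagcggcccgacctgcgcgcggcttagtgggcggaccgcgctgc
Calr: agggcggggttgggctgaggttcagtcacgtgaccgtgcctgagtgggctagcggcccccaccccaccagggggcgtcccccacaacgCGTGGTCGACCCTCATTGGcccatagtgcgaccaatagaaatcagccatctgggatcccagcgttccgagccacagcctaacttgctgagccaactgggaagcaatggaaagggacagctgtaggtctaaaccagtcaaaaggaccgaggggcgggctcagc
Of the 9 genes with the element, 8 rose with OVA (all but Derl3), and over the 9 the median log2 change was 1.29 with a range from 0.38 to 1.78. Of the 20 genes with a window and neither form, 17 rose, and over the 20 the median was 0.71 with a range from -0.11 to 1.64. With citraconate added, 8 of the 9 fell (median -1.04), and 20 of the 20 without either form fell (median -0.61). The remaining 7 genes (Hyou1, Manf, Atf6, Derl1, Sec61a1, Sec11c and Ssr2) had no window. The list was chosen by name with values of these genes known, so these medians are a description with no test.

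The 6 luminal chaperones and their helpers all rose with OVA, with log2 changes from 0.96 to 1.86, and all 6 fell with citraconate added, with log2 changes from -1.31 to -0.92. Hspa5 encodes BiP, the main HSP70 chaperone of the ER lumen. It stood at 442, 513 and 471 TPM with OVA plus citraconate, at 1116, 1335 and 1094 TPM with OVA and at 384, 403 and 391 TPM in control. The OVA libraries lay far above both other groups, and the citraconate libraries lay a little above control with no overlap. The log2 change was 1.58 ± 0.08 (SE) for OVA against control (limma adjusted p = 1.09e-07) and -1.31 ± 0.08 for OVA plus citraconate against OVA (adjusted p = 5.43e-06). Hyou1, a large HSP70 relative that helps BiP exchange its nucleotide, had the largest log2 rise of the 38 genes. It had 72.2, 82.4 and 72.8 TPM with OVA plus citraconate, 168, 207 and 170.3 TPM with OVA and 50.5, 48.5 and 47.7 TPM in control. Here too the 3 groups did not overlap, and the mean with OVA was 3.71 times that in control. The log2 changes were 1.86 ± 0.08 with OVA (adjusted p = 5.14e-08) and -1.24 ± 0.08 with citraconate added (adjusted p = 6.45e-06).

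Creld2, an ER protein induced by stress, also set the 3 groups apart. Its level was 107, 121 and 99.1 TPM with OVA plus citraconate, 253, 311 and 236 TPM with OVA and 77.9, 75.9 and 75.0 TPM in control. All OVA libraries were above all citraconate libraries, and these above all control libraries, with a log2 change of 1.78 with OVA (adjusted p = 2.04e-07) and -1.28 with citraconate added (adjusted p = 9.77e-06). Hsp90b1, which encodes the HSP90 of the ER, was the most abundant of this role. It reached 588, 644 and 602 TPM with OVA plus citraconate, 1195, 1404 and 1192 TPM with OVA and 629.5, 649.5 and 606 TPM in control. For Hsp90b1 the citraconate and control libraries overlapped, while all OVA libraries were higher. Its log2 change was 1.0 ± 0.07 with OVA (adjusted p = 7.2e-07) and -1.04 ± 0.07 with citraconate added (adjusted p = 6.09e-06). Sdf2l1, a partner of BiP and its co-chaperones, averaged 159 ± 8.30 TPM with OVA plus citraconate, 355 ± 35.2 TPM with OVA and 182 ± 8.05 TPM in control (SD, n = 3 each). Manf, a small secreted ER stress protein, averaged 105 ± 8.50, 199 ± 20.9 and 99.6 ± 1.54 TPM in the same groups. The mean with OVA was 1.96 times that in control for Sdf2l1 and 1.99 times for Manf. Sdf2l1 was the luminal chaperone gene called lower with OVA plus citraconate than in control.

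**Figure D3:**
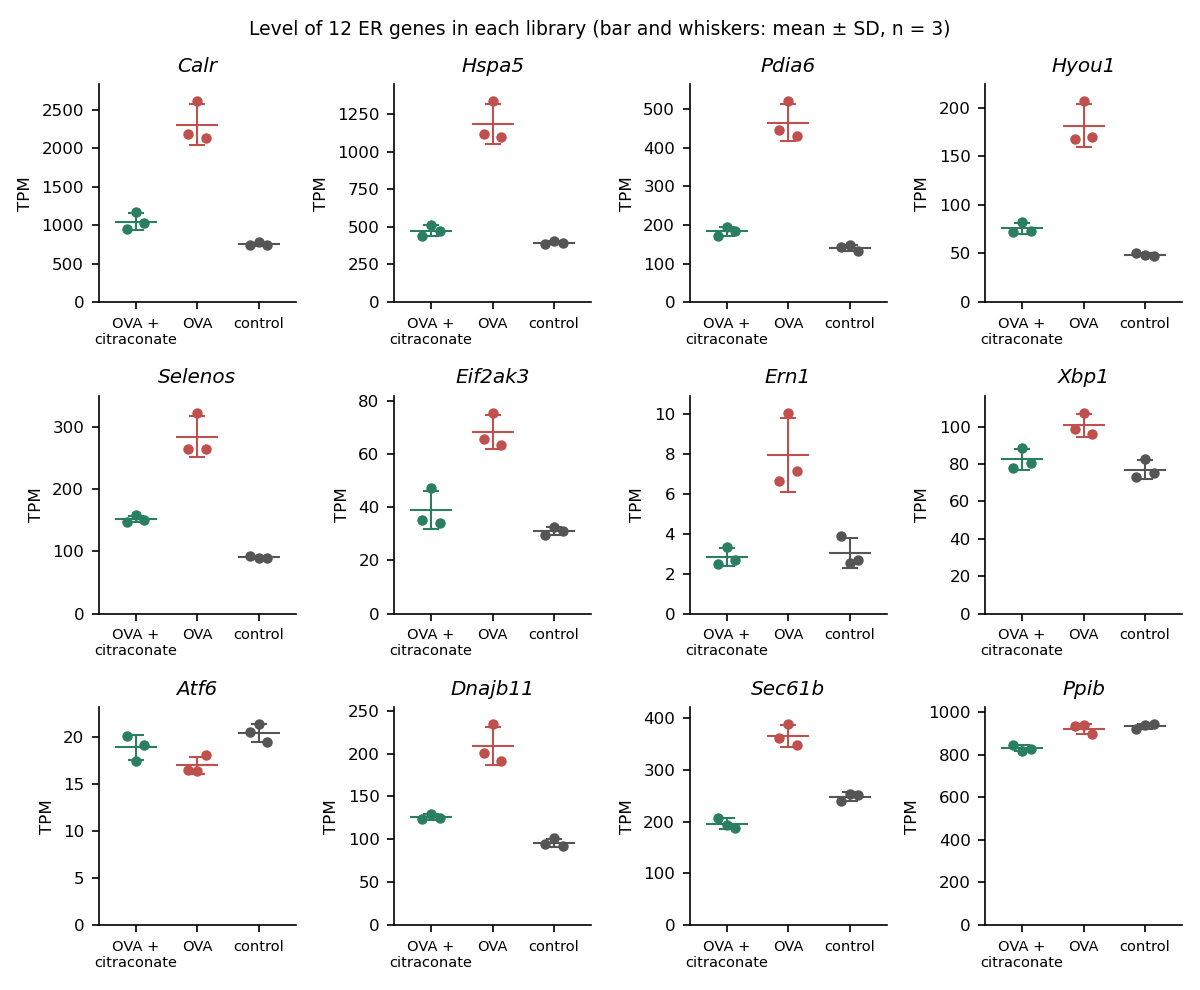
Level in TPM (vertical axes, from 0) of 12 ER genes in each library (points), with the mean and SD of the 3 libraries of each group (bar and whiskers). For Calr, Hspa5, Pdia6, Hyou1 and Selenos the OVA libraries stand above both other groups, while Atf6 is lowest with OVA and Ppib lowest with OVA plus citraconate.

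Calreticulin and calnexin hold newly made glycoproteins by their trimmed sugars. Calr was the most abundant of the 38 genes by the mean of all 9 libraries, though in control Ppib was higher, with 948, 1169.7 and 1026 TPM in OVA plus citraconate libraries, 2185, 2615 and 2136 TPM in OVA libraries and 746, 777 and 737 TPM in control libraries. The 3 groups did not overlap, and the mean with OVA was 3.07 times that in control. The log2 change was 1.61 ± 0.09 with OVA (adjusted p = 2.11e-07) and -1.14 ± 0.09 with citraconate added (adjusted p = 1.07e-05). A pseudogene row for Calr, and one for Spcs2, was listed at 0 in all 9 libraries. Canx, the membrane-bound relative, averaged 311 ± 10.7 TPM with OVA plus citraconate, 486 ± 38.4 TPM with OVA and 306 ± 16.4 TPM in control. Its rise (log2 0.66) and its fall (log2 -0.64) both passed the test.

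The 4 disulfide isomerases, which form and rearrange disulfide bonds, rose with OVA and fell with citraconate, while the 2 prolyl isomerases, Ppib and Fkbp2, did not pass the test with OVA. Pdia6, which also acts on the sensor IRE1, had 172, 195 and 185 TPM with OVA plus citraconate, 447, 521 and 429.8 TPM with OVA and 144, 147 and 131 TPM in control. It had the largest fall of the 38 genes with citraconate on the log2(TPM + 1) scale, and its 3 groups were apart. By the ratio of mean TPM, OVA plus citraconate over OVA, Ern1 fell further (0.356, against 0.3945 for Pdia6). The log2 changes were 1.72 ± 0.08 with OVA (adjusted p = 6.09e-08) and -1.33 ± 0.08 with citraconate added (adjusted p = 5.32e-06). Pdia4 averaged 236 ± 13.7, 508 ± 58.9 and 187 ± 2.53 TPM with OVA plus citraconate, with OVA and in control. Pdia3, the partner of calreticulin and calnexin and a member of the MHC class I loading complex, averaged 547 ± 17.4, 954 ± 74.2 and 456 ± 11.0 TPM in the same groups. P4hb, the classical protein disulfide isomerase, averaged 523 ± 7.90, 877 ± 98.0 and 536 ± 7.21 TPM. Log2 changes of Pdia4, Pdia3 and P4hb were 1.43, 1.06 and 0.70 with OVA and -1.10, -0.80 and -0.74 with citraconate added, all past the test.

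Ppib, cyclophilin B, was among the most abundant of the 38 genes and moved little. Its libraries read 846, 817 and 829.5 TPM with OVA plus citraconate, 935, 938 and 896 TPM with OVA and 921, 939 and 944 TPM in control. OVA and control libraries overlapped, and the citraconate libraries were below both. The log2 change with OVA was -0.02 (95% interval -0.11 to 0.07, adjusted p = 0.712), and with citraconate added it was -0.15 (adjusted p = 0.00967). Scaling by the median of ratios, quantile normalization, leaving out the granzyme genes, limma-voom on recovered reads or leaving out OVA replicate 3 turned the sign of the OVA value, which passed the test under no alternative. Fkbp2, an FK506-binding prolyl isomerase, had 209.9, 199 and 177 TPM with OVA plus citraconate, 223, 247 and 211 TPM with OVA and 242, 242 and 251 TPM in control. Its OVA and control libraries overlapped by the value of OVA replicate 2, and the citraconate libraries were below both groups. Its fall with citraconate (log2 -0.21, adjusted p = 0.0265) was lost without OVA replicate 1, without OVA replicate 2 or without OVA plus citraconate replicate 3 (log2 -0.23, -0.15 and -0.15). It was also lost with the 6 libraries of the comparison alone (adjusted p = 0.0583) and without a trend in eBayes (adjusted p = 0.053).

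Of the 3 J-domain co-chaperones that hand clients to BiP, Dnajb11 and Dnajc3 rose with OVA and Dnajb9 did not pass the test. Dnajb11, an ER partner of BiP known as ERdj3, had 123, 129.6 and 125 TPM with OVA plus citraconate, 201, 234 and 191 TPM with OVA and 94.4, 101 and 92.1 TPM in control. All 3 groups were apart, with log2 changes of 1.11 ± 0.07 with OVA (adjusted p = 5.26e-07) and -0.72 ± 0.07 with citraconate added (adjusted p = 3.51e-05). Dnajc3, also known as P58IPK, averaged 54.3 ± 2.79, 109 ± 6.68 and 52.5 ± 0.866 TPM with OVA plus citraconate, with OVA and in control. Its level with citraconate and in control overlapped. Dnajb9, known as ERdj4 and as a target of spliced XBP1, averaged 19.6 ± 1.06, 23.8 ± 1.21 and 23.4 ± 1.15 TPM in these groups. Its log2 change with OVA was 0.02 (95% interval -0.14 to 0.18), with citraconate added to OVA it was -0.26 (adjusted p = 0.00862), and its OVA value turned sign without control replicate 2 or without OVA replicate 2.

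Of the genes for the 3 stress sensors and the factor XBP1, 3 rose with OVA and Atf6 fell. Ern1, which encodes IRE1 alpha, the kinase and RNase that splices Xbp1, was the least abundant of these and had the largest log2 changes of the 4 in both comparisons. It had 2.51, 3.34 and 2.67 TPM with OVA plus citraconate, 6.67, 10.1 and 7.14 TPM with OVA and 3.89, 2.54 and 2.67 TPM in control. OVA libraries were all higher, and the other groups overlapped. The log2 change was 1.15 ± 0.17 with OVA (adjusted p = 0.000178) and -1.21 ± 0.17 with citraconate added (adjusted p = 0.000242). Eif2ak3 encodes PERK, the kinase that acts on eIF2 alpha. Its level was 35.3, 47.0 and 34.2 TPM with OVA plus citraconate, 65.7, 75.4 and 63.3 TPM with OVA and 29.5, 32.6 and 30.8 TPM in control. Groups were apart, and among the citraconate libraries replicate 2 was well above the others. Eif2ak3 had log2 changes of 1.11 ± 0.11 with OVA (adjusted p = 1.14e-05) and -0.81 ± 0.11 with citraconate added (adjusted p = 0.00022).

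Xbp1, measured over all its forms, rose by a log2 of less than 1. Its libraries read 78.0, 88.8 and 80.7 TPM with OVA plus citraconate, 98.8, 108 and 95.9 TPM with OVA and 73.2, 83.0 and 75.1 TPM in control. The OVA libraries were above all others, and the citraconate and control libraries overlapped. Log2 changes were 0.38 ± 0.07 with OVA (adjusted p = 0.000694) and -0.28 ± 0.07 with citraconate added (adjusted p = 0.00596). Atf6, the membrane-held transcription factor, was lower with OVA. It had 20.1, 17.5 and 19.2 TPM with OVA plus citraconate, 16.5, 16.4 and 18.1 TPM with OVA and 20.6, 21.4 and 19.5 TPM in control. The OVA libraries lay below the control libraries, with the citraconate libraries overlapping both. Its log2 change was -0.25 with OVA (adjusted p = 0.0119), a call that was lost with the granzyme genes left out of the table (log2 -0.15, adjusted p = 0.0927). With citraconate added to OVA its log2 difference was 0.15 (95% interval -0.02 to 0.31, adjusted p = 0.123).

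Degradation genes take misfolded proteins back out of the ER to the proteasome, and 9 of the 10 rose with OVA and fell with citraconate added, all but Derl3. Selenos, a selenoprotein of the membrane complex that draws proteins out, had 148, 158 and 150.2 TPM with OVA plus citraconate, 266, 323 and 265 TPM with OVA and 92.5, 88.8 and 89.5 TPM in control. The groups were wide apart, and the citraconate libraries were all above control. Its log2 changes were 1.64 ± 0.07 with OVA (adjusted p = 5.1e-08), -0.90 ± 0.07 with citraconate added (adjusted p = 1.31e-05) and 0.74 ± 0.07 for OVA plus citraconate against control (adjusted p = 1.66e-05). Os9, a lectin that reads trimmed sugars on misfolded glycoproteins, was the most abundant of this role by the mean of all 9 libraries, though with OVA Selenos was higher. It had 171, 192 and 173 TPM with OVA plus citraconate, 237, 282 and 229 TPM with OVA and 165, 172 and 175 TPM in control. Os9 in the citraconate libraries overlapped control and lay below OVA. The log2 change was 0.54 with OVA (adjusted p = 0.000132) and -0.47 with citraconate added (adjusted p = 0.000546).

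The ubiquitin ligase of this route and its scaffold both rose with OVA and fell with citraconate added. Syvn1, the ligase HRD1, averaged 28.0 ± 1.94 TPM with OVA plus citraconate, 51.7 ± 7.14 TPM with OVA and 20.5 ± 2.38 TPM in control. Sel1l, its scaffold, averaged 26.7 ± 2.28, 45.9 ± 7.92 and 19.1 ± 0.571 TPM in these groups. Log2 changes with OVA were 1.29 for Syvn1 and 1.21 for Sel1l, and with citraconate added -0.85 and -0.75. The mannosidase-like proteins Edem1 and Edem2, which mark glycoproteins for disposal, had log2 changes of 0.57 and 0.71 with OVA and -0.60 and -0.48 with citraconate added. Among the derlins, membrane proteins of the exit route, Derl1 averaged 75.7 ± 2.13, 116 ± 8.53 and 59.2 ± 2.04 TPM with OVA plus citraconate, with OVA and in control. Derl2 averaged 15.0 ± 0.855, 17.9 ± 0.752 and 9.99 ± 0.678 TPM in the same groups, a mean with citraconate 0.839 times that with OVA alone. The fall of Derl2 with citraconate (log2 -0.24, adjusted p = 0.0234) was lost without OVA replicate 2 or without OVA plus citraconate replicate 1 or 3 (log2 -0.21, -0.23 and -0.21). Derl3 was near the detection limit, with 0.694 ± 0.157, 1.63 ± 1.19 and 0.911 ± 0.368 TPM. Derl3 was called higher with OVA (log2 0.70, adjusted p = 0.0296) and lower with citraconate (log2 -0.86, adjusted p = 0.0161) when OVA replicate 1 was left out. Herpud1, which helps assemble the ligase complex, averaged 98.2 ± 4.62, 112 ± 6.61 and 87.2 ± 2.28 TPM. Its fall with citraconate (log2 -0.18, adjusted p = 0.0206) was lost without OVA replicate 1 or 3, without OVA plus citraconate replicate 2, or with mitochondrially encoded genes left out (log2 -0.16, -0.16, -0.15 and -0.15).

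All 7 translocation and signal peptide genes rose with OVA, by log2 values from 0.29 to 1.04, and all 7 fell with citraconate added, with log2 changes from -0.90 to -0.40. Sec61b, the beta subunit of the channel through which proteins enter the ER, had 208, 193 and 187 TPM with OVA plus citraconate, 361, 388 and 347 TPM with OVA and 239, 254 and 252 TPM in control. No groups overlapped, and the citraconate libraries were the lowest, below control. Sec61b had log2 changes of 0.55 with OVA (adjusted p = 1.15e-05), -0.90 with citraconate added (adjusted p = 5.43e-06) and -0.34 for OVA plus citraconate against control (adjusted p = 0.000562). The pore subunit gene Sec61a1 averaged 99.6 ± 2.12, 155 ± 11.0 and 90.4 ± 3.27 TPM with OVA plus citraconate, with OVA and in control. Its log2 change was 0.77 with OVA and -0.63 with citraconate added. Against control, Sec61a1 with OVA plus citraconate stood at a log2 of 0.14 (adjusted p = 0.062), which did not pass the test, although the libraries of these groups did not overlap. It was called higher under 5 of the 21 alternatives (adjusted p = 0.0202 to 0.0389), namely without the granzyme genes, without the mitochondrially encoded genes, with the 6 libraries of the comparison alone, with limma-voom on recovered reads and without OVA replicate 2. The translocon-associated proteins, which sit beside the channel, had log2 changes of 0.47 (Ssr1), 1.04 (Ssr2) and 0.73 (Ssr3) with OVA. With citraconate added they had -0.40, -0.57 and -0.62. Signal peptidase, which cuts off the entry signal, was represented by Sec11c and Spcs2. Sec11c, a catalytic subunit, averaged 93.9 ± 1.65, 126 ± 2.52 and 69.6 ± 2.44 TPM. Spcs2, an accessory subunit, averaged 109 ± 1.78, 145 ± 11.3 and 118 ± 2.84 TPM in the same groups, with the smallest rise of the 33 genes that rose (log2 0.29).

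**Figure D4:**
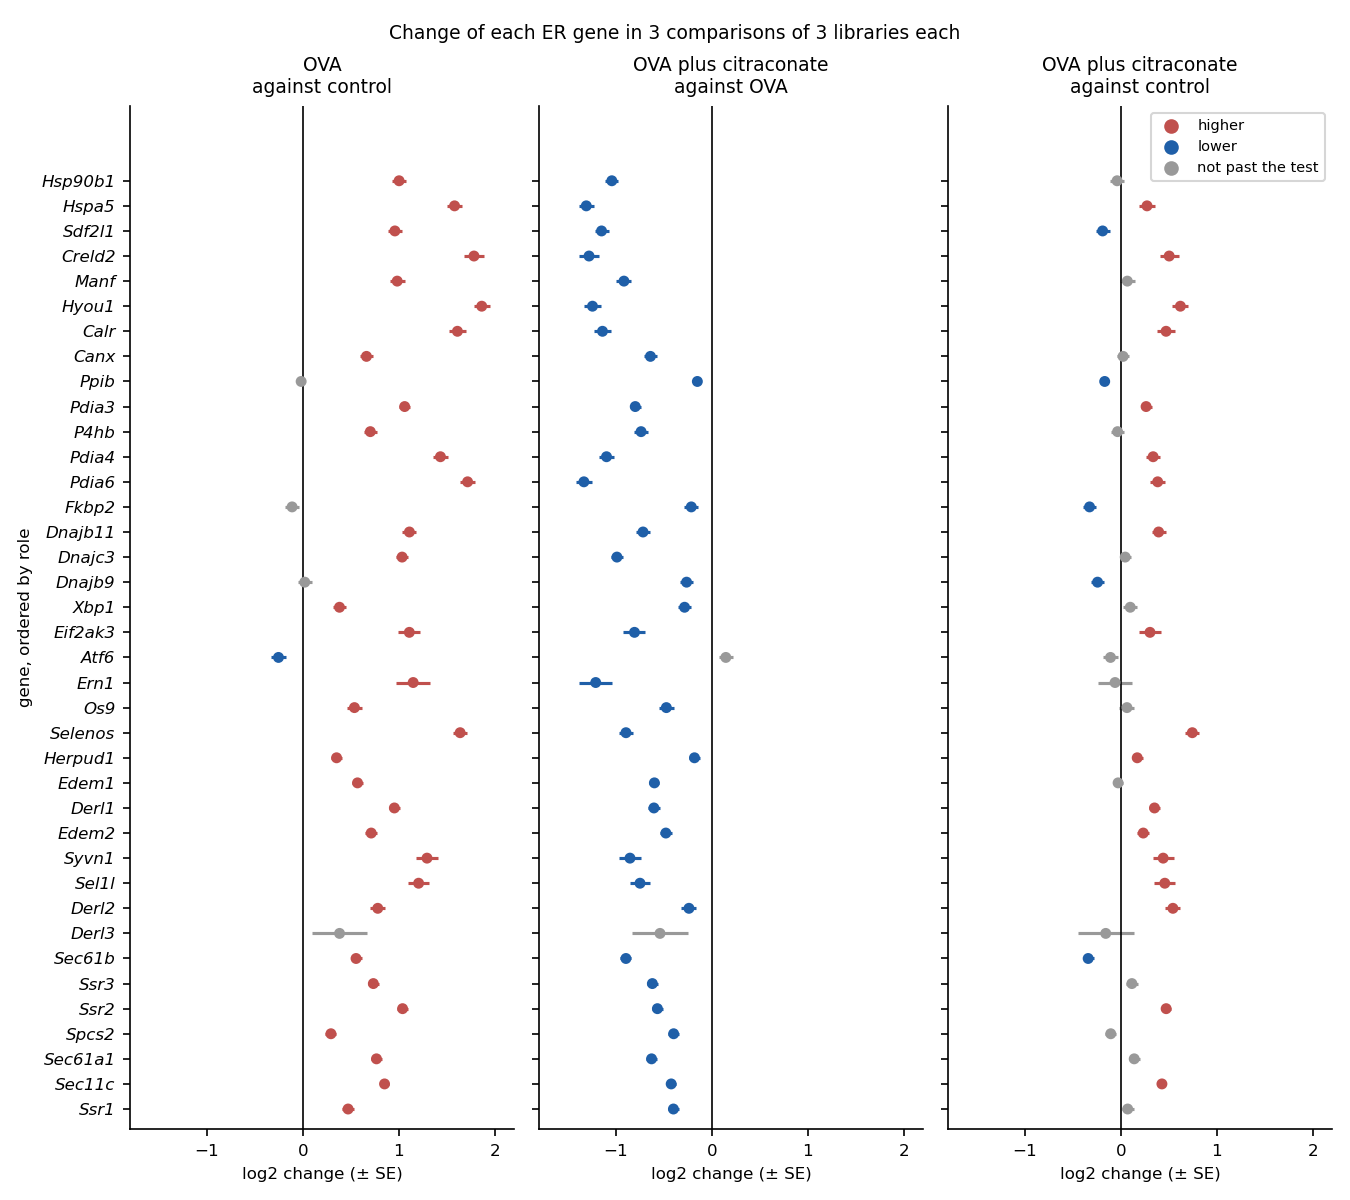
Log2 change (horizontal axes, limma on log2(TPM + 1)) with its standard error (lines) of each of the 38 ER genes in 3 comparisons of 3 libraries each, coloured red where higher, blue where lower and grey where the test was not passed. There are 33 red points in OVA against control, 36 blue points in OVA plus citraconate against OVA, and 18 red and 5 blue points in OVA plus citraconate against control.

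OVA plus citraconate was also set against control. Of the 38 genes 18 rose, 5 fell (Sdf2l1, Dnajb9, Sec61b, Ppib and Fkbp2) and 15 did not pass the test, with a median log2 change of 0.13, against 0.04 over all genes tested. Over all genes 33.1% were called higher and 26.3% lower, so the calls of the 38 genes lay nearer to the background here. For 0 of the 38 genes was the log2 change 1 or more in size, and the range was -0.34 to 0.74. The largest were Selenos (0.74), Hyou1 (0.62), Derl2 (0.54) and Creld2 (0.50). By role, 7 of 10 degradation genes were called higher, against 3 of 6 luminal chaperones, 3 of 6 isomerases, 2 of 7 translocation genes and 1 of 4 sensors and factors (Eif2ak3).

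Library by library, the 3 citraconate libraries lay between the control and OVA libraries without touching either for 19 genes, among them Hspa5, Calr, Hyou1, Creld2, Pdia6, Selenos, Syvn1 and Sel1l. They overlapped control alone for 11 genes, among them Hsp90b1, Canx, P4hb, Ern1, Xbp1 and Edem1. For 6 genes (Sdf2l1, Dnajb9, Sec61b, Spcs2, Ppib and Fkbp2) they lay below both other groups, and Atf6 and Derl3 followed neither pattern. Against control alone they lay wholly above for 19 genes, wholly below for 6 and overlapped for 13. Over the 11971 genes tested these counts were 4463, 3603 and 3905. How many of all genes lay between both groups, or below both, was not counted, so these patterns have no background here. Some calls against control rested on small differences. Those of Sdf2l1, Eif2ak3 and Herpud1 were lost under 11, 9 and 7 of the 21 alternatives, each including the removal of control replicate 1 (log2 -0.16, 0.27 and 0.16). For Eif2ak3 the log2 change was 0.30 with all libraries and 0.16 without OVA plus citraconate replicate 2 (adjusted p = 0.131). That of Hspa5 was lost without OVA plus citraconate replicate 2 (log2 0.21, adjusted p = 0.0507) and under median-of-ratios scaling.

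Other genes of the secretory route were taken from lists fixed by name, and their counts stand beside 32.1% of all genes called higher and 39.8% lower with OVA, and 37.8% higher and 21.2% lower with citraconate. Among 18 further translocation and signal peptide genes tested, 16 rose and 1 fell with OVA, and 1 rose and 12 fell with citraconate added. Srpr, a subunit of the receptor that docks ribosomes at the ER, averaged 127 ± 2.92 TPM with OVA plus citraconate, 168 ± 6.24 TPM with OVA and 79.8 ± 5.60 TPM in control. Log2 changes with OVA were 1.07 for Srpr, 1.0 for its partner Srprb and 1.08 for Sec63, a channel helper. Of 12 subunits of oligosaccharyltransferase, the enzyme that attaches N-linked sugars, 10 rose and 2 fell with OVA, and 1 rose and 9 fell with citraconate. Rpn1 averaged 199 ± 8.36, 327 ± 14.7 and 139 ± 5.33 TPM with OVA plus citraconate, with OVA and in control. The catalytic subunit gene Stt3b averaged 123 ± 5.50, 265 ± 38.6 and 102 ± 3.16 TPM, and Ostc 199 ± 5.58, 324 ± 23.7 and 159 ± 11.1 TPM. Of 21 genes of vesicle export and of the KDEL receptors, which return ER residents, 18 rose and 2 fell with OVA, and 2 rose and 17 fell with citraconate. Sec24d, a coat protein of export vesicles, averaged 30.1 ± 6.05, 74.1 ± 9.22 and 19.6 ± 1.73 TPM. The cargo lectin Lman1 had log2 changes of 1.23 with OVA and -0.72 with citraconate, and the coat protein gene Sec13 had 0.80 and -0.17. These 3 lists moved in the direction of the 38 genes in both comparisons, with median log2 changes of 0.39, 0.52 and 0.51 with OVA and -0.36, -0.50 and -0.38 with citraconate.

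Other lists were less one-sided. Of 24 further folding enzymes tested, 13 rose and 5 fell with OVA, and 3 rose and 12 fell with citraconate. Erp44, a thiol-binding ER protein, averaged 97.9 ± 2.32, 107 ± 2.27 and 65.6 ± 1.52 TPM with OVA plus citraconate, with OVA and in control. The J-domain gene Dnajc1 and the sulfatase-modifying gene Sumf1 had log2 changes of 1.11 and 0.96 with OVA and -0.34 and -0.16 with citraconate, where Sumf1 did not pass the test. Of 22 further degradation genes, 13 rose (59.1%, against 32.1% of all genes tested) and 4 fell (18.2%, against 39.8%) with OVA, and 4 rose (18.2%, against 37.8%) and 7 fell (31.8%, against 21.2%) with citraconate. Vcp, the ATPase that pulls proteins from the membrane, averaged 285 ± 12.2, 413 ± 29.9 and 207 ± 6.48 TPM. Ngly1, which strips sugars from extracted proteins, had a log2 change of -0.95 with OVA.

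The arm of PERK and ATF4 changed in part. Of its 14 genes, 9 rose (64.3%) and 3 fell (21.4%) with OVA, and 2 rose (14.3%) and 8 fell (57.1%) with citraconate. Asns, asparagine synthetase and a target of ATF4, averaged 76.6 ± 5.73 TPM with OVA plus citraconate, 223 ± 20.4 TPM with OVA and 55.0 ± 2.81 TPM in control. Nupr1, a stress-induced chromatin protein, averaged 2.45 ± 0.699, 17.6 ± 2.62 and 0.643 ± 0.161 TPM in these groups. Vldlr, a lipoprotein receptor, moved the opposite way, with 2.41 ± 0.634, 0.189 ± 0.0851 and 6.22 ± 0.809 TPM. Of 9 genes tested among the ATF6 and CREB3 factors, their proteases and NF-Y, 4 rose (44.4%, against 32.1% of all genes tested) and 3 fell (33.3%, against 39.8%) with OVA, and 3 rose (33.3%, against 37.8%) and 2 fell (22.2%, against 21.2%) with citraconate, shares near those of all genes. Atf6b, the close relative of Atf6, rose with OVA, with 67.3 ± 2.22, 75.0 ± 3.57 and 45.3 ± 1.40 TPM. Creb3l2 rose by a log2 of 1.03 with OVA, and Nfya, a subunit of NF-Y, had a log2 change of -1.56, with 12.2 ± 1.39, 8.87 ± 1.52 and 27.9 ± 2.06 TPM.

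Cargo of the ER includes the granzymes, whose share of transcripts is given above. Of 26 secreted and granule genes tested, 21 rose and 2 fell with OVA, and 7 rose and 13 fell with citraconate. Together the listed cargo took 5.11% of all transcripts with OVA plus citraconate (4.33 to 6.48%), 10.2% with OVA (9.20 to 11.3%) and 1.16% in control (1.03 to 1.26%). Spp1, osteopontin, averaged 3713 ± 752 TPM with OVA plus citraconate, 6515 ± 1548 TPM with OVA and 15.1 ± 1.25 TPM in control. Gzmd, a granzyme with near-identical copies among which reads may be divided, averaged 3103 ± 1296, 18129 ± 3423 and 4.91 ± 1.86 TPM. Ctsg, cathepsin G, averaged 21.9 ± 4.03 TPM with OVA plus citraconate and 245 ± 8.99 TPM with OVA, and was listed at 0 in control. Spp1, Gzmd and Ctsg all fell with citraconate added. Among the 7 cargo genes that rose were Csf2, Xcl1 and Ccl5, named after their values were seen. Csf2 averaged 295 ± 112 TPM with OVA plus citraconate and 42.1 ± 17.8 TPM with OVA. Xcl1 averaged 1741 ± 273 and 552 ± 286 TPM, and Ccl5 1386 ± 535 and 556 ± 211 TPM, in these 2 groups. The median log2 change of the cargo genes was 3.97 with OVA, -0.15 with citraconate added to OVA and 4.41 for OVA plus citraconate against control, beside 0.90, -0.68 and 0.13 for the 38 ER genes.

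**Figure D5:**
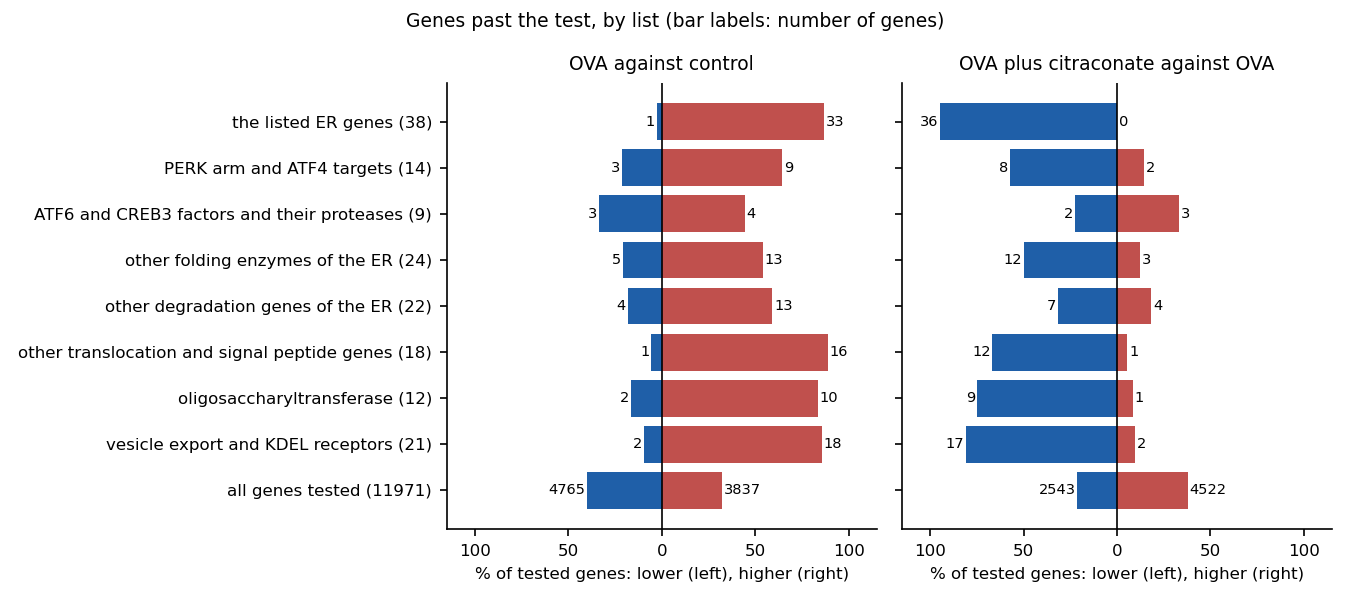
Percent of tested genes called lower (blue, left) and higher (red, right) in OVA against control and in OVA plus citraconate against OVA, for the 38 ER genes, 7 further lists (number tested in brackets) and all genes tested, with the number of genes at each bar. The 38 ER genes, translocation genes, oligosaccharyltransferase and vesicle export genes are mostly red on the left panel and mostly blue on the right, while the ATF6 and CREB3 list is mixed in both.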

How the data were processed

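RNA-seq libraries of mouse CD8+ T cells (3 per group) were compared. The authors deposited 1 table of TPM values with genes named by symbol. Its name says FPKM, but every column adds up to 1000000, as TPM does. GRCm39, Salmon and Trim Galore 0.5.0 are named by the submitters' processing notes, and the sources used here give no annotation. Whether Salmon made the deposited values is not certain. Whole reads could be worked back for 100% of the 16734 genes above 0 in at least 2 libraries (tolerance 0.0001 reads or 3e-08 of the count) and gave 14754470 to 17384330 reads per library. They served for depth and for 1 alternative with voom weights. TPM values of near-identical genes may divide reads in a way the sources do not state.

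Values were changed to log2(TPM + 1), which understates changes of low genes, and the 11971 genes whose group mean reached 1 TPM at least once were fitted with limma 3.58.1 in R 4.3.3 (lmFit, eBayes with a trend, all 9 libraries). P-values are two-sided and adjusted by Benjamini-Hochberg over all genes tested, with calls at an adjusted p under 0.05. Error is SD over 3 libraries or SE of the fit. The fit was tried on simulated data with few changed genes and the same spread for every gene. The data here have far more genes called, so that trial does not show how reliable these calls are. In addition, 21 alternatives were run. The members, lists and markers were chosen with earlier results of these data known. Values of every library are given for the most abundant gene of each role, every sensor, and the 5 largest rises and falls in OVA against control and in OVA plus citraconate against OVA. Others are given by means or counts, and of each further list the 3 genes with the smallest adjusted p in either comparison are named, but for 1 that is not reported here. Symbols were matched to 31 RefSeq promoter windows of GRCm38.p6, an older build than that of the notes, and sequences were read with Python 3.11.15. Replicate numbers in the labels are not said to pair libraries. The myeloid marker Itgam was not analysed here.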

Additional observations from a re-analysis of the deposited data

How the results depend on the processing

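Over the 21 alternatives, 785 of 796 values of single genes kept their direction and side of the threshold in OVA against control, 783 of 796 in OVA plus citraconate against OVA and 750 of 795 in OVA plus citraconate against control. The count of genes called lower with OVA was 0 with the granzyme genes left out and 1 to 2 when 1 library was left out, against 1. With a replicate block, 33 genes rose and 1 fell with OVA, 36 fell with citraconate added, and 18 rose and 5 fell against control, as without it. Same-numbered libraries of different groups correlated at -0.012 to 0.304 in their deviations from the group means, and differently numbered ones at -0.254 to 0.168. The highest value, 0.304, was that of replicate 2 of OVA with replicate 2 of OVA plus citraconate. The labels state no pairing, and the numbers were not taken as pairs. Log2 changes that turned sign had not passed the test. In OVA against control these were Dnajb9 (-0.011 to 0.0604 with 1 library left out, -0.011 without control replicate 2 and -0.0064 without OVA replicate 2), Fkbp2 at 0.0014 without granzyme genes, and Ppib at 0.0679 with the median of ratios, 0.0864 with quantile normalization, 0.0963 without granzyme genes, 0.0245 with limma-voom on recovered reads and -0.0295 to 0.0036 with 1 library left out (0.0036 without OVA replicate 3). In OVA plus citraconate against control they were Hsp90b1 at 0.0014, P4hb at 0.0064 and Edem1 at 0.0112 without granzyme genes, P4hb at 0.0013 and Edem1 at 0.0062 without mitochondrially encoded genes, Canx at -0.0218 with the median of ratios and -0.0229 to 0.0484 with 1 library left out (below 0 without control replicate 3 or OVA plus citraconate replicate 2), and Ern1 at -0.1532 to 0.086 with 1 library left out (above 0 without control replicate 1 or OVA plus citraconate replicate 1). Why they turned was not tested. Depth limits Derl3, with 4 to 25 reads per library.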

Other observations

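Outside the 38 genes, 28 symbols had the ER stress response element (CCAAT and CCACG separated by 9 bases) in their promoter window. Of these, 22 were in the table and 7 were tested, 2 higher and 2 lower with OVA, and 1 higher and 3 lower with citraconate added. Over all genes tested, 32.1% were called higher and 39.8% lower with OVA, and 37.8% higher and 21.2% lower with citraconate added. These counts, and those of the second form below, rest on few genes and are a description with no test. Alg12, a mannosyltransferase of the ER, averaged 11.3 ± 0.704 TPM with OVA plus citraconate, 20.7 ± 2.18 TPM with OVA and 10.9 ± 1.20 TPM in control (SD, n = 3 each), with limma log2 changes of 0.86 and -0.82, both past the test. Tdrd9, a helicase known from the germline, averaged 0.373 ± 0.0878 TPM with OVA plus citraconate and 4.59 ± 1.01 TPM with OVA, and was listed at 0 in control. Hnrnpa3, an RNA-binding protein, averaged 256 ± 15.3, 231 ± 14.0 and 419 ± 31.2 TPM, and the deadenylase subunit gene Pan2 11.7 ± 0.634, 8.92 ± 1.71 and 13.1 ± 0.709 TPM in these 3 groups, and both were lower with OVA than in control. The second form of the element stood in the windows of 10 other symbols, of which 6 were tested, 3 higher and 2 lower with OVA, and 0 higher and 4 lower with citraconate added. Nucb1, which encodes the calcium-binding protein nucleobindin, averaged 113 ± 3.07 TPM with OVA plus citraconate, 164 ± 16.3 TPM with OVA and 140.4 ± 1.51 TPM in control. Hnrnpa3, Pan2 and Nucb1 were named after their values were seen, as were Alg12 and Tdrd9.

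Within the arm of PERK and ATF4, 4 further genes, picked after their values were seen, differed in where the citraconate libraries stood. Atf4 itself averaged 423 ± 12.4 TPM with OVA plus citraconate, 625 ± 5.65 TPM with OVA and 453 ± 4.99 TPM in control. Ddit3, which encodes the stress factor CHOP, averaged 14.5 ± 1.06, 30.0 ± 2.13 and 19.3 ± 2.01 TPM, and Trib3, a target of ATF4 and CHOP, averaged 9.01 ± 2.11, 42.9 ± 7.01 and 27.3 ± 2.66 TPM. Both were lower with OVA plus citraconate than in control, with log2 changes of -0.39 and -1.52 (limma adjusted p = 0.00455 and 2.07e-05). Atf3, a stress-induced repressor, was highest with citraconate, with 125 ± 20.3, 69.6 ± 17.3 and 46.6 ± 1.98 TPM and a log2 change of 0.85 for OVA plus citraconate against OVA (adjusted p = 0.00143). No cause of these differences was tested.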
